A study of Mus musculus with 9 samples.

Results

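The clustered protocadherins are adhesion proteins of the neuronal surface, encoded in 3 neighboring gene clusters (alpha, beta, and gamma). They were taken from brain RNA-seq of mice with intracerebral hemorrhage (ICH) as all genes whose symbols begin with Pcdha, Pcdhb, Pcdhga, Pcdhgb, or Pcdhgc followed by a number, with Pcdhac1 and Pcdhac2 included. The rule found 57 of the 38621 genes listed, of which 13 are alpha, 22 beta, and 22 gamma genes, and no measured value entered it. Brain tissue of C57BL/6 mice was sequenced in 3 groups of 3 mice. The sham mice are labelled as untreated, while the study's methods describe a saline injection. The ICH mice had their own blood injected into the brain, and the feb mice received febuxostat, a xanthine oxidase inhibitor, before ICH was induced. Every feb mouse therefore carried both the drug and the hemorrhage, and no group received febuxostat alone. The dissected region and the time after injection are not given for these libraries in the sources used here. In whole tissue, fewer cells of a type and less RNA per cell cannot be told apart.

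Each neuron switches on a small set of these genes by promoter choice, which depends on CTCF and cohesin. The proteins pair across membranes with copies of themselves, and the resulting surface code is known for letting a neuron avoid its own branches and for tuning dendrites and synapses. In the alpha and gamma clusters, each gene contributes a variable first exon that encodes the outer part of the protein, and this exon is spliced to 3 constant exons that encode a tail common to the whole cluster. Beta genes have no constant exons. The last genes of the alpha and gamma clusters, called C-type (Pcdhac1, Pcdhac2, Pcdhgc3, Pcdhgc4, and Pcdhgc5), are less subject to random choice than the others.

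The deposited values are RPKM, the reads of a gene scaled to the exon length in kb and to all reads counted on genes in the sample, so they can be compared between genes of different length. Between 23065757 and 29538009 reads were counted per mouse, and 100% of the values corresponded to whole reads within 0.05 of a read. Sham replicate 2 had higher summed alpha, beta, and gamma levels than the other sham mice.

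All 3 clusters lie on the plus strand of chromosome 18 (GRCm38). The alpha genes span 36930184 to 37187661, the beta genes 37264938 to 37524479, and the gamma genes 37661793 to 37841873. All 13 alpha genes list the same 3 constant exons of 59, 89, and 2712 bases, the longest at 37184946 to 37187657. All 22 gamma genes likewise list exons of 59, 89, and 1968 bases, the longest at 37839903 to 37841870. A read on such an exon was counted for every gene of the cluster. The gene with the fewest reads in a cluster had between 89.9% and 97.9% of the reads of the median gene of its cluster in the same mouse. The deposited values of the alpha genes, and those of the gamma genes, were therefore mostly the same reads listed many times. Each beta gene consists of 1 exon block, and the only shared stretch is 455 bases between Pcdhb21 and Pcdhb22. Antisense genes overlap exons of 4 alpha, 1 beta, and 8 gamma genes, and whether counting used strand is not stated, so reads of the pairs cannot be separated.

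Among the beta genes, the mean RPKM over the 9 mice ran from 0.0904 to 4.57, with a median of 1.48. Pcdhb20 (37504264 to 37507822) was highest. Its RPKM was 3.86, 4.91, and 4.07 for sham replicates 1 to 3, 4.91, 4.74, and 4.94 for the ICH replicates, and 4.45, 4.23, and 5.03 for the feb replicates. Values are given in this order of replicates throughout. The groups overlapped. Pcdhb17 followed with a mean of 3.30 RPKM, and Pcdhb9 with 2.13 RPKM. The lowest were Pcdhb6 with 0.623, Pcdhb4 with 0.482, and Pcdhb1 with 0.0904 RPKM. Pcdhb1, which lies first in the cluster (37264938 to 37267525), ranged from 0.0523 to 0.168 RPKM, and the filter of at least 0.1 RPKM in 3 mice was met by ICH replicates 1 and 3 and feb replicate 3. All 57 genes passed that filter. The lowest beta count in a mouse was 4 reads and the highest was 474.

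Beta genes later in the cluster had higher levels. Spearman's rho between position and mean RPKM was 0.775 over the 22 genes, and it lay between 0.639 and 0.837 within each of the 9 mice. This is a description across genes, which are not independent replicates. Pcdhb12 to Pcdhb22 held 69.1% of the summed beta RPKM, with a median of 1.62 RPKM per gene, against 0.848 for Pcdhb1 to Pcdhb11. Reads on Pcdhb12 include those of the antisense gene Gm37446, which covers 1927 bases of it.

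**Figure D1:**
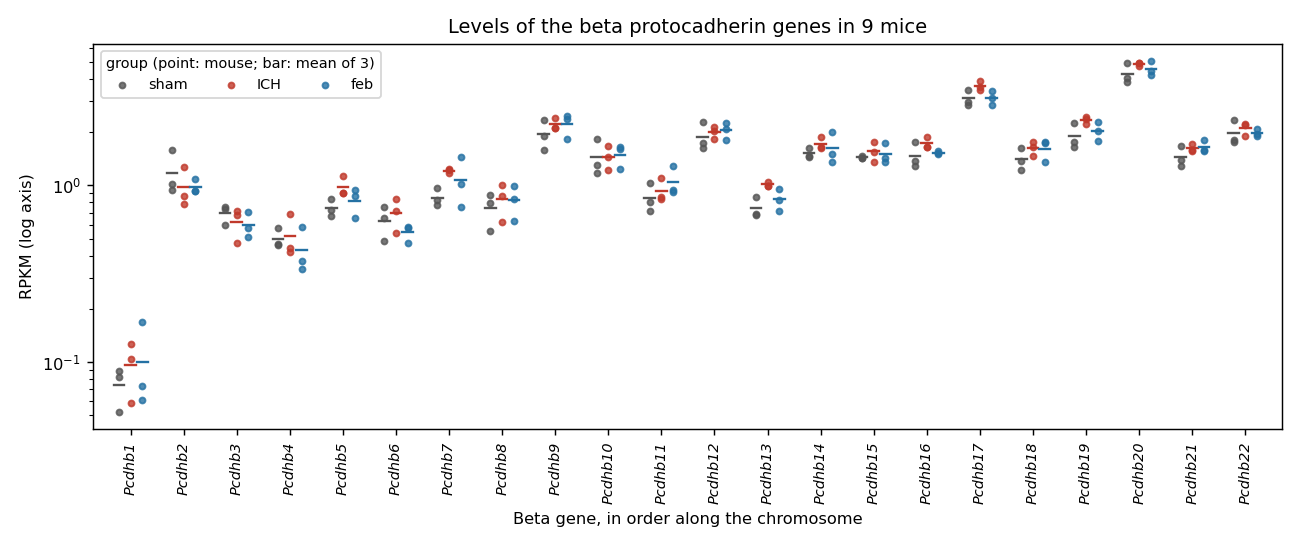
RPKM of the 22 beta genes on a log axis, in order along the chromosome, with a point for each mouse (3 per group) and a bar at the mean of each group. Pcdhb1 lies between 0.0523 and 0.168 RPKM, Pcdhb20 has the highest mean at 4.57 RPKM, and the points of the groups overlap for most genes.

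The alpha genes had means of 6.09 to 11.8 RPKM with a median of 9.63. The highest were Pcdhac2, Pcdha12, and Pcdha5, and the lowest Pcdhac1, Pcdha1, and Pcdha11. The gamma genes had means of 25.0 to 45.9 RPKM with a median of 35.2. Here Pcdhgc3, Pcdhgb6, and Pcdhgb7 were highest, and Pcdhgc5, Pcdhga12, and Pcdhgb5 lowest. Since shared reads are divided by the whole exon length of each gene, these orders partly follow exon length. Pcdha11 is an example, since its row combines 7174 bases of exon not common to the cluster, against 2346 to 3028 bases for the other alpha genes.

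To look past the shared exons, the reads of Pcdha1 were subtracted from those of each alpha gene and the reads of Pcdhga1 from those of each gamma gene in the same mouse. Reads on the constant exons cancel, and what remains is the reads on the gene's other exon bases less those of the reference gene. This measure was chosen after the data were seen. It is given as RPKM above the reference, per kb of exon not common to the cluster, and understates the gene's own level by that of the reference gene. Where antisense or unspliced transcripts add reads to the gene's own exons, it overstates that level. Pcdhgb1, Pcdhga4, Pcdhgb4, and Pcdhga8 share 2224 to 3157 bases with other gamma genes, against 2116 to 2119 for the rest. Reads on their further shared bases do not cancel. Pcdha1 had the fewest reads of the alpha genes in every mouse, while Pcdhga2 was below Pcdhga1 in sham replicate 3, ICH replicate 2, and feb replicate 2.

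**Figure D2:**
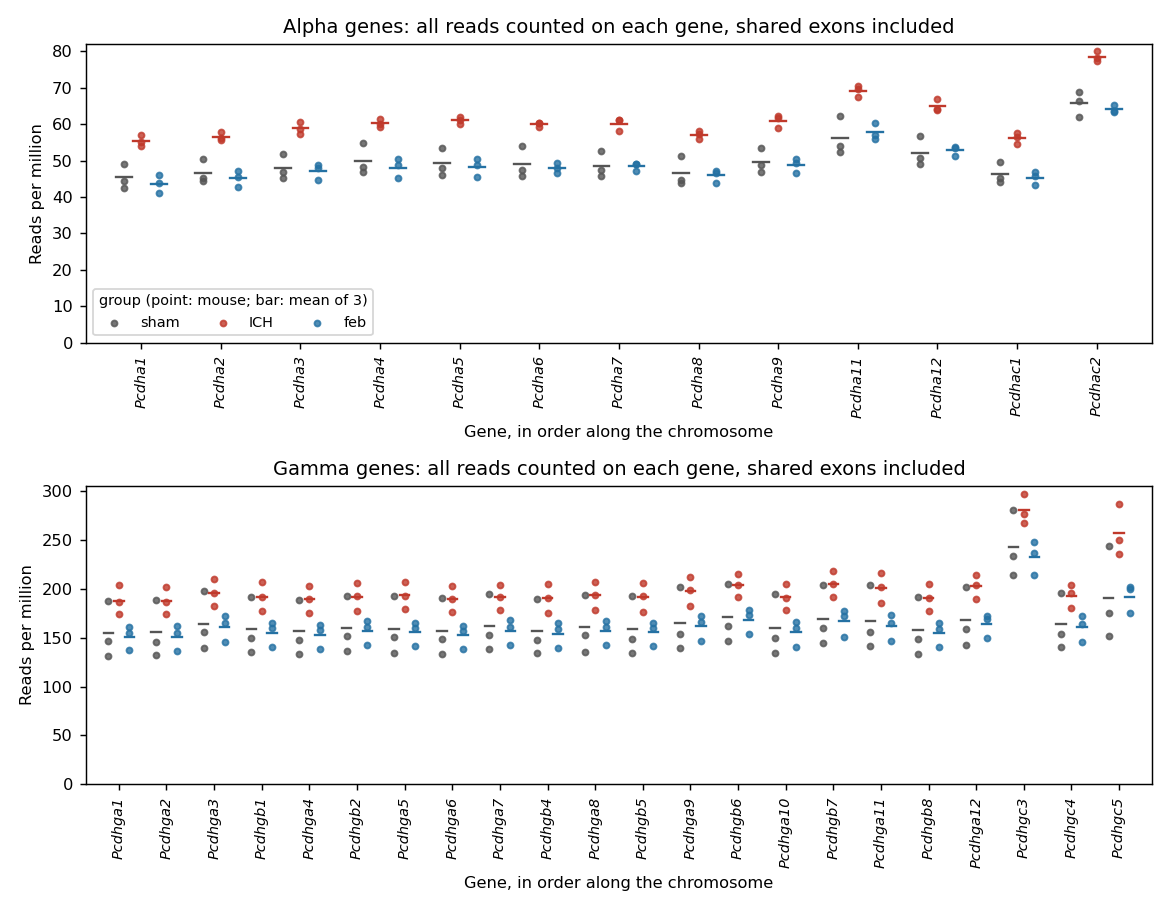
Reads counted on each alpha gene (top) and gamma gene (bottom), scaled to the depth of the mouse, shared exons included, in order along the chromosome, with a point for each mouse and a bar at each group's mean. The points of a mouse run nearly level from gene to gene within a cluster, and Pcdhac2, Pcdhgc3, and Pcdhgc5 stand above the rest.

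By this measure the reads of the alpha genes were a median of 8.52% their own above Pcdha1, and those of the gamma genes 3.41% above Pcdhga1. Pcdhgc3, which binds the Wnt pathway protein Axin1 through its own cytoplasmic part, was highest with a mean of 25.8 RPKM above the reference. An antisense gene, BC037039, covers 1559 bases of Pcdhgc3 and had 1735 to 2326 reads per mouse, so some of these reads may belong to it. Pcdhgc5, whose protein is known to bind GABA-A receptors, followed with 8.83 RPKM above the reference. Pcdhac2, which is needed for the spacing of serotonergic axons, had 7.04, Pcdhgb6 6.40, and Pcdhgb7 6.02. Pcdhgc4, known for its part in the survival of cortical interneurons, was lower at 2.20 and ranged from -0.0219 to 3.26. Pcdhac1 was among the lowest at 0.452. The C-type genes held both the highest and some of the lowest own levels. The beta gene of highest level, at 4.57 RPKM, lay between Pcdhga11 and Pcdha12, which had 4.58 and 3.45 RPKM above the reference. No reference is subtracted from the beta value, so the measures are not alike. Spearman's rho of own level with position was 0.566 over 13 alpha genes and 0.667 over 22 gamma genes, again as a description.

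**Figure D3:**
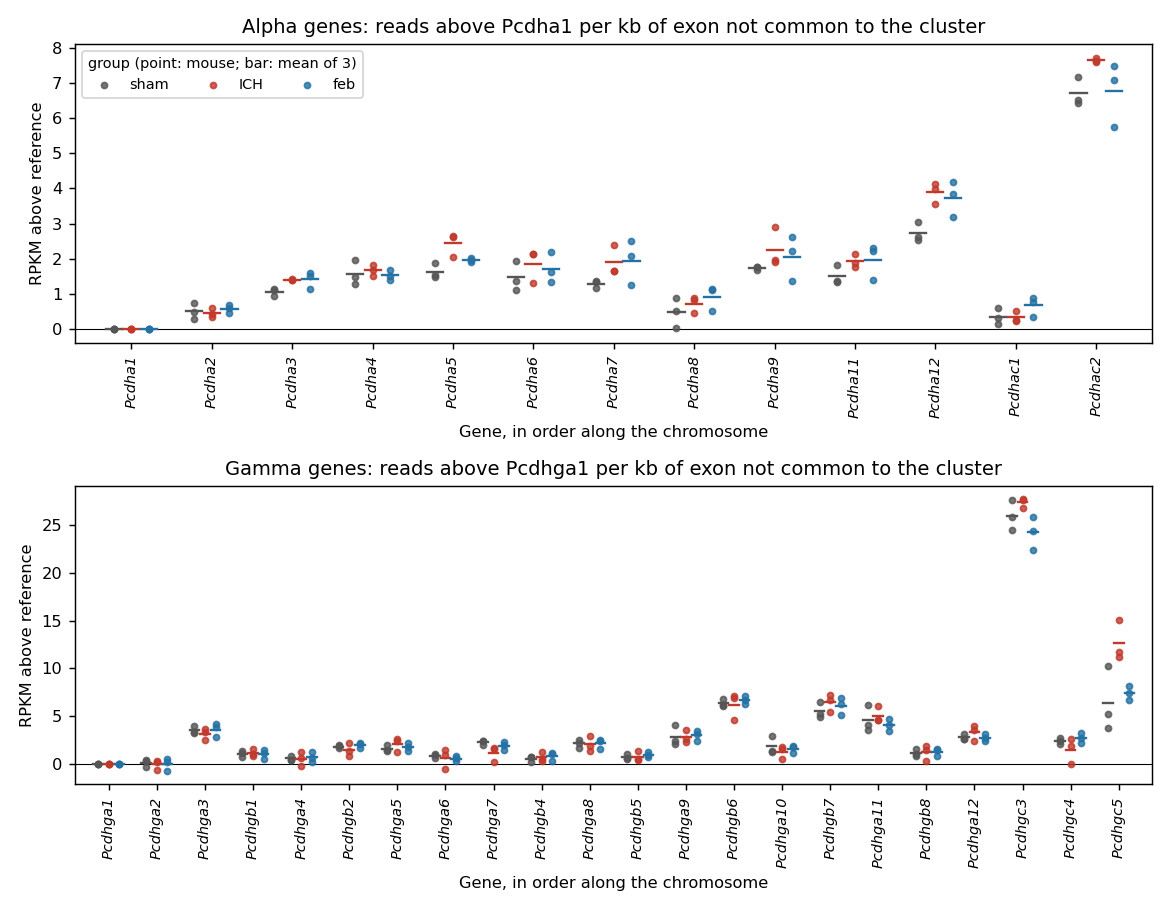
RPKM above the reference gene for the alpha genes (top, above Pcdha1) and gamma genes (bottom, above Pcdhga1), in order along the chromosome, with a point for each mouse and a bar at each group's mean. Pcdhgc3 has the highest level at a mean of 25.8, and for Pcdhgc5 the 3 ICH mice lie above the other 6.

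The comparison of the ICH and sham groups asks what the hemorrhage was accompanied by. Summed alpha and gamma RPKM in the ICH mice were about 1.2 times, and summed beta RPKM about 1.13 times, those of the sham mice. The groups overlapped for beta and gamma. The summed alpha RPKM was 112.9, 125.4, and 108.9 for the sham mice, against 141.8, 144.3, and 138.6 for the ICH mice. Every ICH mouse was above every sham mouse. These sums count each shared read once per gene and serve to compare groups only. The summed gamma RPKM was 597, 847, and 662 for the sham mice, against 845, 906, and 787 for the ICH mice. Sham replicate 2 thus lay among the ICH mice. The summed beta RPKM was 28.7, 35.0, and 28.8 for the sham mice, against 34.7, 34.6, and 35.0 for the ICH mice, again with sham replicate 2 at the ICH level. The mean log2 difference (ICH minus sham) was 0.29 for the alpha, 0.18 for the beta, and 0.28 for the gamma sum.

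By the study's criteria, an unadjusted p under 0.05 and a fold change over 2, limma called 0 of the 57 genes, while 2.53% of all 29025 genes tested were called. An unadjusted p under 0.05 alone was reached by 15 genes, all higher in the ICH group, where the share of all genes higher at that p was 7.88%. These were the 13 alpha genes, which stand for largely 1 measurement, and Pcdhb13 and Pcdhgc5. After Benjamini-Hochberg adjustment over all genes, 0 passed 0.05, against 0.0241% of all genes, and the lowest adjusted p was 0.334 by limma. Limma with voom on the recovered reads also called 0, with 15 at p under 0.05. Without sham replicate 2 the number at p under 0.05 was 40, with 13 alpha, 5 beta, and 22 gamma genes, and the medians were 0.35, 0.26, and 0.43. With all samples scaled to equal medians it was 2. The median log2 difference was 0.29 over the alpha, 0.16 over the beta, and 0.28 over the gamma genes, against 0.08 over all genes tested. Scaling to equal medians moved the median of all genes to -0.03 and the alpha median to 0.19. The groups did not overlap for 17 genes, all higher in the ICH group, while 13.2% of all genes tested were apart in that direction.

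Among the beta genes, 20 of 22 log2 differences were above 0, as were 17728 of those of all 29025 genes tested. The groups did not overlap for 4 of the 22, all higher in the ICH group, beside 13.2% of all genes. Of the 22, 1 was higher at an unadjusted p under 0.05, beside 7.88% of all genes. Pcdhb13 (37442500 to 37446209) had 0.684, 0.856, and 0.681 RPKM across the sham mice, against 0.991, 0.994, and 1.05 across the ICH mice. It was the only beta gene at an unadjusted p under 0.05, with a log2 difference of 0.41 (SE 0.17, limma's adjusted p = 0.398). It was no longer past that p in 11 of 19 alternatives, among them equal medians (0.30), quantile normalization (0.29), the replicate block, and leaving out any ICH mouse, feb replicate 3, or sham replicate 1 or 3. Pcdhb7 had 0.774, 0.962, and 0.823 RPKM across the sham mice, against 1.18, 1.24, and 1.22 across the ICH mice. Its log2 difference of 0.47 (SE 0.22) did not pass (limma's adjusted p = 0.423). The groups were also apart for Pcdhb5 (log2 difference 0.35) and Pcdhb17 (0.23), which did not pass either.

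Among the alpha genes, the log2 differences lay between 0.26 and 0.32. Pcdha12 averaged 9.78 ± 0.758 RPKM among sham mice, against 12.2 ± 0.311 among ICH mice (SD, n = 3 each). Its log2 difference was 0.32 (SE 0.08, limma's adjusted p = 0.334). Above the reference, Pcdha12 was also higher in the ICH group, with 2.54, 3.05, and 2.62 RPKM across the sham mice, against 3.56, 3.98, and 4.12 across the ICH mice. This log2 difference was 0.49 (SE 0.13, limma's adjusted p = 0.337). Pcdha5 above the reference had 1.49, 1.87, and 1.55 RPKM across the sham mice, against 2.63, 2.06, and 2.64 across the ICH mice. The log2 difference was 0.55 (SE 0.15, limma's adjusted p = 0.336). With Pcdha3, these were 3 of 12 alpha genes at an unadjusted p under 0.05 by this measure, all higher, where 7.88% of all genes were higher. For 6 of the 12 the groups were apart with the ICH group higher, beside 13.2% of all genes, and the median log2 difference was 0.34. The 12 values share the subtracted Pcdha1 reads, so they are not 12 separate results.

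**Figure D4:**
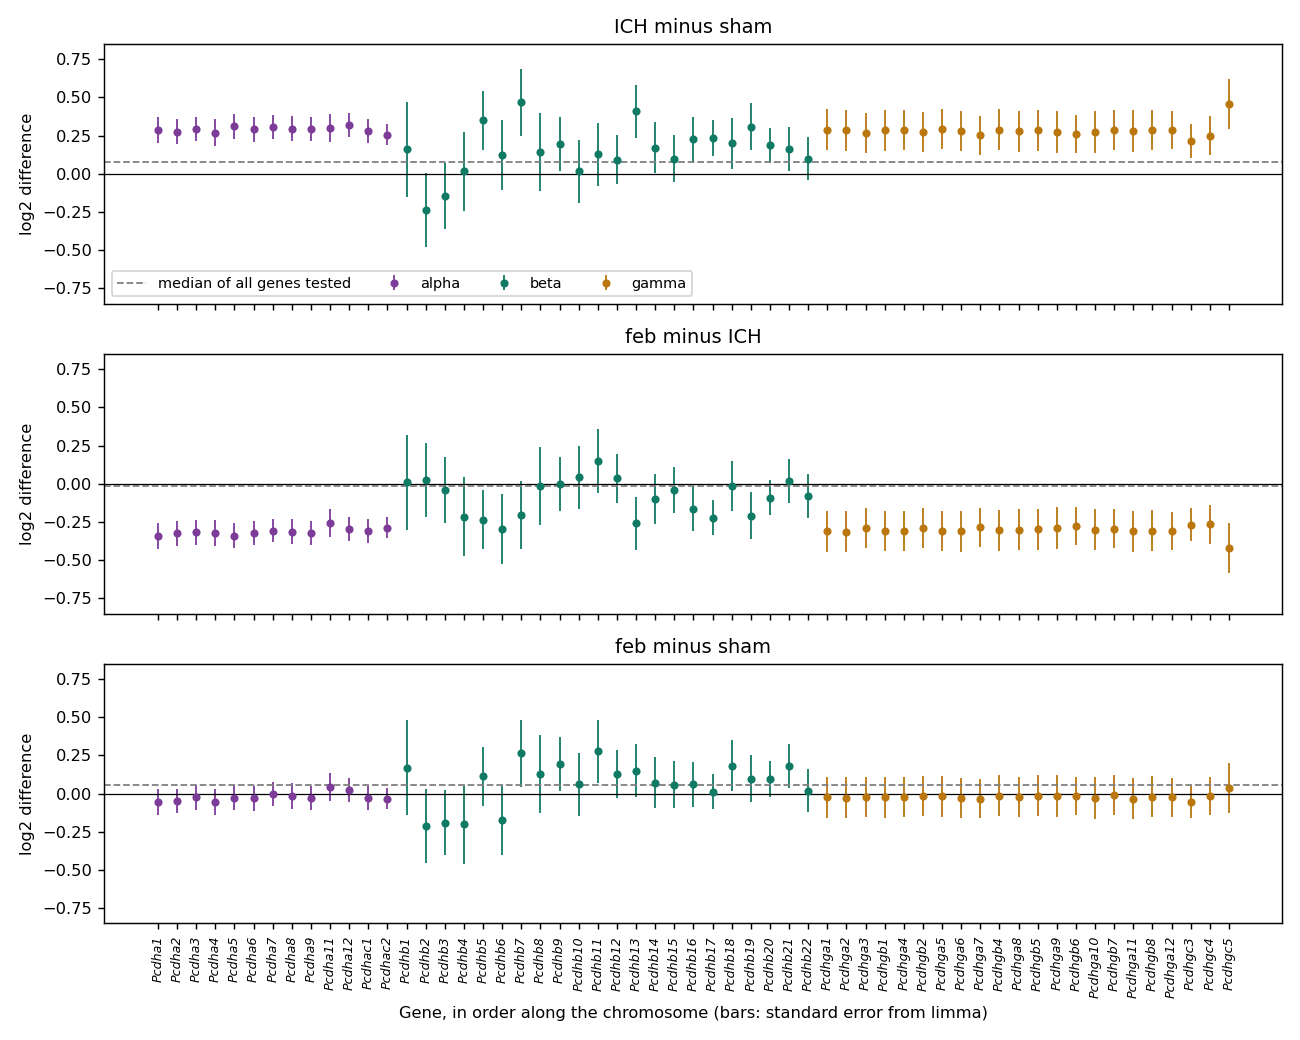
Log2 differences of RPKM between groups for the 57 genes in the order of the chromosome, with standard errors from limma, for ICH minus sham (top), feb minus ICH (middle), and feb minus sham (bottom). The dashed line is the median of all 29025 genes tested. The alpha and gamma genes form level runs near 0.29 and 0.28 at the top, -0.32 and -0.30 in the middle, and -0.03 and -0.02 at the bottom, and the beta genes scatter.

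Among the gamma genes, all 22 log2 differences were above 0, between 0.22 and 0.46, and the groups overlapped for each. The count at an unadjusted p under 0.05, which was 1, turned on the sham mice. Without sham replicate 2, all 22 had an unadjusted p under 0.05 (median 0.43), and without sham replicate 1, 0 had (median 0.17). The largest was that of Pcdhgc5 (37819513 to 37841873). Its deposited RPKM was 19.9, 32.0, and 23.0 across the sham mice, 32.8, 37.6, and 30.9 across the ICH mice, and 26.5, 22.9, and 26.2 across the feb mice. The log2 difference between ICH and sham was 0.46 (SE 0.16, limma's adjusted p = 0.373), past an unadjusted p of 0.05. Above the reference, Pcdhgc5 had 3.78, 10.3, and 5.22 RPKM across the sham mice, 11.7, 15.0, and 11.2 across the ICH mice, and 7.41, 6.72, and 8.15 across the feb mice. All 3 ICH mice were above the other 6, with sham replicate 2 the nearest. This log2 difference was 1.08 (SE 0.31, limma's adjusted p = 0.349) and met the study's criteria of an unadjusted p under 0.05 and a fold change over 2. By this measure 1 of 21 gamma and 0 of 12 alpha genes met them, beside 2.53% of all genes tested on deposited values. The 21 gamma values share the subtracted Pcdhga1 reads, so they are not 21 separate results. For Pcdhgc5 the exact two-sided permutation p was 0.1, the smallest that 3 against 3 mice allow. The log2 difference was 1.47 without sham replicate 2 and 0.77 without sham replicate 1. It was 0.97 after scaling to equal medians and 0.96 with a pseudocount of 1. The fold change over 2 was lost where the value is under 1, also without ICH replicate 2 (0.95) and without sham replicate 3 (0.99). For the other 20 gamma genes above the reference, 0 had an unadjusted p under 0.05, and the median over all 21 was -0.06. Pcdhga7 went the other way without overlap, with 2.42, 2.37, and 1.98 RPKM across the sham mice, against 1.61, 0.184, and 1.63 across the ICH mice. Its log2 difference was -1.32 (SE 0.62, limma's adjusted p = 0.42). Of all 29025 genes tested, 1804 were apart in that direction. For Pcdhgc4 the log2 difference was -1.65 (SE 1.05), and the groups overlapped.

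The exon blocks listed for Pcdhgc5 include an intron of 2886 bases (37822135 to 37825020) through which unspliced transcripts of the other gamma genes also run. Reads of such transcripts cannot be told apart from those of Pcdhgc5 in these counts. The sum of 4 marker genes of cortical excitatory neurons (Slc17a7, Neurod6, Nrn1, and Camk2a) also differed between these groups. It lay from 147 to 194 RPKM for sham, from 266 to 373 for ICH, and from 226 to 274 for feb mice, and none of the 4 was at 0. Between ICH and sham, 3 of the 4 passed an unadjusted p under 0.05. Slc17a7, the vesicular glutamate transporter of cortical neurons, was called with 16.1 ± 3.67 RPKM among sham mice against 48.0 ± 17.0 among ICH mice (SD, n = 3 each, log2 difference 1.54). Neurod6, a transcription factor of the same neurons, was also called. Other marker lists moved as well. The sums of 6 neuron markers were 571 to 634 RPKM for sham and 614 to 639 for ICH mice, and Rbfox3 (log2 difference 0.32) and Syt1 (0.29) were higher at an unadjusted p under 0.05. All 4 thalamic markers had log2 differences below 0 (median -1.04), of which Tcf7l2 was called as lower, with sums of 95.8 to 165 and 25.3 to 128 RPKM. The sum of 3 cerebellar markers was 6.33 to 12.7 RPKM for sham and 3.47 to 5.16 for ICH mice, without overlap. Only 1 of these 3, Cbln1, passed the filter. Of 5 microglia markers, 2 were higher at an unadjusted p under 0.05, with sums of 24.6 to 32.4 and 29.9 to 47.8 RPKM. The part of these markers' cells in the protocadherin differences was not tested.

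**Figure D5:**
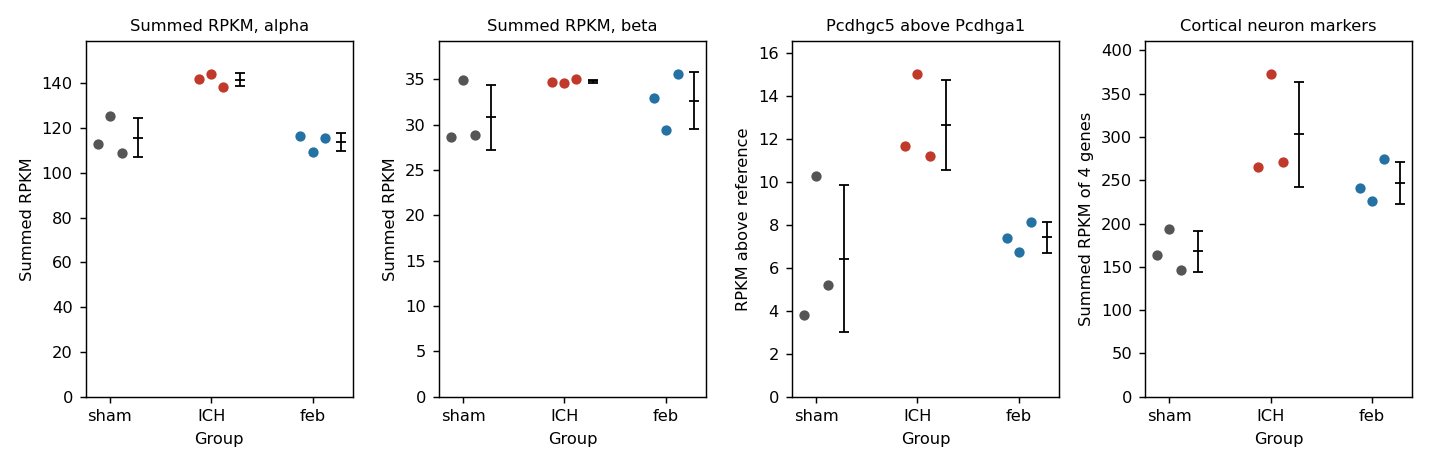
Values per mouse in the sham, ICH, and feb groups (points), with the mean and SD of each group of 3 (black), for the summed RPKM of the alpha genes, that of the beta genes, the RPKM of Pcdhgc5 above Pcdhga1, and the summed RPKM of 4 cortical excitatory neuron markers. The ICH mice lie above the sham mice for alpha, Pcdhgc5, and the markers, and overlap with them for beta.

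The comparison of the feb and ICH groups asks how pretreatment with febuxostat was reflected after hemorrhage. It shares the ICH mice with the comparison above, so a low or high ICH value enters both in opposite directions. Alpha and gamma levels were about 0.8 times those of the ICH mice, and beta levels overlapped. The summed alpha RPKM was 116.5, 109.2, and 115.5 for the feb mice, below all ICH mice, with a log2 difference of -0.32. The summed gamma RPKM was 730, 623, and 704, also below all ICH mice, with a log2 difference of -0.30. The summed beta RPKM was 32.9, 29.4, and 35.6, with a log2 difference of -0.09.

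Limma called 0 of the 57 genes between feb and ICH, against 2.43% of all genes tested, and limma with voom called 0 as well, with 34 at p under 0.05. An unadjusted p under 0.05 was reached by 25 genes, all lower in the feb group, where 6.16% of all genes were lower at that p. They were the 13 alpha and 12 of the 22 gamma genes, again largely 2 measurements, and 0 beta genes. After adjustment 0 passed 0.05, against 0.00689% of all genes, and the lowest adjusted p was 0.259. The number at p under 0.05 was 12 without ICH replicate 1, 13 without ICH replicate 2, feb replicate 2, or feb replicate 3, 14 without sham replicate 3, and 35 without sham replicate 1 or 2, since the sham mice share the estimate of the spread. The median log2 difference was -0.32 over the alpha, -0.06 over the beta, and -0.30 over the gamma genes, against -0.01 over all genes tested. The groups did not overlap for 38 genes, all lower in the feb group, while 10.1% of all genes were apart in that direction. They were all 13 alpha genes, all 22 gamma genes, and Pcdhb13, Pcdhb16, and Pcdhb17.

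Pcdha1, which has the fewest reads of its own among the alpha genes, shows the shared alpha reads most directly. It had 8.32, 9.19, and 7.94 RPKM across the sham mice, 10.3, 10.7, and 10.1 across the ICH mice, and 8.59, 7.67, and 8.21 across the feb mice. Its log2 difference between feb and ICH was the largest of the alpha genes at -0.34. Above Pcdha1, 0 of 12 alpha genes had an unadjusted p under 0.05 between feb and ICH, and their median was -0.03. This measure is less precise. Its SE ran from 0.11 (Pcdhac2) to 0.69 (Pcdha8, with 2 to 72 reads above the reference). On deposited RPKM the SE ran from 0.07 (Pcdhac2) to 0.09 (Pcdha11). For genes of large SE, a difference of -0.34 could be missed. Pcdha12 above the reference was 3.19, 4.19, and 3.84 RPKM across the feb mice, which overlapped with the ICH mice. With the shared reads removed, 5 of the 12 feb minus ICH differences were above 0 and 7 below. Those above were Pcdha2 (0.29), Pcdha7 (0.01), Pcdha8 (0.31), Pcdha11 (0.01), and Pcdhac1 (0.81), and 0 of them passed an unadjusted p of 0.05.

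Among the gamma genes above Pcdhga1, 2 of 21 had an unadjusted p under 0.05, both lower, where 6.16% of all genes were lower. The median over the 21 was 0.14, which is the value of Pcdhga2 (SE 0.90). That gene lay around the reference, with means of -0.018 RPKM above it among ICH mice and 0.022 among feb mice. Pcdhgc5 was lower in the feb group, with a log2 difference of -0.75 (SE 0.31, limma's adjusted p = 0.433). Its unadjusted p was above 0.05 when any ICH or feb mouse or sham replicate 3 was left out, with log2 differences between -0.83 and -0.62. Pcdhgc3 above the reference had 26.8, 27.6, and 27.7 RPKM across the ICH mice, against 25.8, 22.4, and 24.4 across the feb mice. Its log2 difference was -0.18 (SE 0.08, limma's adjusted p = 0.45), and the groups were apart. Pcdhgc4 above the reference averaged 1.47 ± 1.35 RPKM among ICH mice, against 2.71 ± 0.547 among feb mice (SD, n = 3 each). Pcdhac2 above the reference averaged 7.64 ± 0.0668 RPKM among ICH mice, against 6.77 ± 0.908 among feb mice (SD, n = 3 each, limma's adjusted p = 0.562).

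Marker lists also moved in this comparison. The 6 neuron markers summed to 559 to 599 RPKM in the feb mice, below the 614 to 639 of all ICH mice, though 0 of the 6 passed an unadjusted p of 0.05. The cerebellar marker Cbln1 was higher in the feb group (log2 difference 0.80). The summed RPKM of 6 choroid plexus markers was 455 to 964 in the ICH and 30.0 to 87.3 in the feb mice, and all 6 were called as lower. Of 5 blood markers 4 were called as lower, with sums of 26.7 to 124 and 17.1 to 21.6 RPKM. Of 5 microglia markers 4 were lower at an unadjusted p under 0.05, with sums of 29.9 to 47.8 and 21.9 to 26.8 RPKM. Of the choroid plexus, blood, and microglia markers, 0 were called as higher. Their part in the protocadherin differences was not tested.

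Between the feb and sham groups, limma called 0 of the 57 genes, against 2.2% of all genes tested, and limma with voom called 0, with 0 at p under 0.05. At an unadjusted p under 0.05 the count was 0, against 8.54% of all genes. After adjustment 0 passed 0.05, against 0.00345% of all genes, and the lowest adjusted p was 0.715. For 0 genes were the groups apart, against 7.78% higher and 4.9% lower among all genes. The median log2 difference was -0.03 over the alpha, 0.10 over the beta, and -0.02 over the gamma genes, and 0.05 over all genes tested. Without sham replicate 2 these medians were 0.03, 0.21, and 0.12, so that the alpha and gamma signs turned, still with 0 genes at an unadjusted p under 0.05. The summed alpha RPKM averaged 115.7 ± 8.63 among sham mice and 113.7 ± 3.94 among feb mice (SD, n = 3 each). The largest difference was that of Pcdhb11, with 0.712, 1.03, and 0.805 RPKM across the sham mice, against 0.923, 0.941, and 1.28 across the feb mice (log2 difference 0.28, SE 0.21). Above the reference, Pcdha12 was higher in the feb than in the sham group, with a log2 difference of 0.43 (SE 0.13, limma's adjusted p = 0.564), and all 3 feb mice were above all 3 sham mice. By this measure 11 of 12 alpha genes were above 0 (median 0.30), where 17051 of all 29025 genes were. Of the 12, 1 had an unadjusted p under 0.05, beside 8.54% of all genes. For 2 the feb group was apart and higher, beside 7.78%. The 12 values share the subtracted Pcdha1 reads. Of 21 gamma genes above Pcdhga1, 14 were above 0 (median 0.07), and 0 had a p under 0.05.

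How closely the genes followed each other across the 9 mice was described by Pearson's r between pairs. The median r was 0.987 over 78 pairs of alpha genes and 0.999 over 231 pairs of gamma genes, which share most of their reads. It was 0.459 over 231 pairs of beta genes, with a range of -0.85 to 0.97. Above the reference the median was 0.565 for alpha genes, whose values share the subtracted gene and the library.

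Genes that act with the clusters were taken from 4 lists. Of 11 genes of CTCF and cohesin, which loop the clusters' promoters to their enhancers, 0 were called between ICH and sham. At an unadjusted p under 0.05 the cohesin loader Nipbl (log2 difference 0.19) and the cohesin regulator Pds5a (0.29) were higher and the cohesin subunit Smc1a (-0.37) was lower, where 7.88% of all genes were higher and 4.42% lower at that p. Their median was 0.13. Ctcf itself averaged 15.4 ± 0.639 RPKM among sham and 16.9 ± 0.677 among ICH mice (SD, n = 3 each, limma's adjusted p = 0.452). Between feb and ICH 0 of the 11 had a p under 0.05. Between feb and sham Nipbl was higher (0.18) at that p, which 8.54% of all genes passed in either direction. Of 8 chromatin repressors of the clusters, among them Smchd1, Setdb1, and the DNA methyltransferases, 0 had an unadjusted p under 0.05 in any comparison. For Smchd1, which silences the clusters, the log2 difference was 0.15 between ICH and sham and -0.18 between feb and ICH.

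Of 13 protocadherins outside the clusters, 0 were called in any comparison. The shares of all genes called were 2.53% (ICH minus sham), 2.43% (feb minus ICH), and 2.2% (feb minus sham). Pcdh1 was higher in the ICH than in the sham group at an unadjusted p under 0.05 (log2 difference 0.33), Pcdh7 was lower in the feb than in the ICH group (-0.32), and Pcdh20 was higher in the feb than in the sham group (0.95). At that p, 7.88% of all genes were higher between ICH and sham and 6.16% were lower between feb and ICH. Between feb and sham 8.54% passed it in either direction. The median of the 13 between ICH and sham was 0.06.

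Of 17 partners and effectors of the proteins, 7 were higher and 1 was lower in the ICH than in the sham group at an unadjusted p under 0.05, beside the same 7.88% and 4.42% of all genes. Ptk2b, the kinase Pyk2 that protocadherin tails bind and inhibit, was called as higher, with 21.38 ± 11.99 RPKM among sham and 38.71 ± 5.72 among ICH mice (SD, n = 3 each, log2 difference 1.01). The receptor kinase Ret was called as lower, with 4.02 ± 1.24 and 1.65 ± 0.766 RPKM (SD, n = 3 each, log2 difference -1.30). Ptk2, the focal adhesion kinase, was higher with a log2 difference of 0.29, as was Adam10, a protease that cuts the proteins outside the membrane (0.26). Between feb and ICH, Ptk2 (-0.23) and Adam10 (-0.29) were lower at an unadjusted p under 0.05, where 6.16% of all genes were lower. Of the 17, 0 were called, against 2.43% of all genes. Between feb and sham, Abi1 (0.35) and Ptk2b (0.93) were higher at that p, which 8.54% of all genes passed in either direction.

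The tissue was checked against markers of its cells. All 6 neuron markers passed the filter, with sums between 559 and 639 RPKM in the 9 mice. The serotonergic markers Tph2, Slc6a4, and Fev summed to between 0.0262 and 0.749 RPKM, and 1 of the 3 passed the filter, so Pcdhac2 was read in tissue with almost no transcripts of that cell type. Sums of 5 astrocyte markers ranged from 225 to 763, of 5 oligodendrocyte markers from 462 to 855, of 2 precursor markers from 8.55 to 11.7, and of 4 endothelial markers from 20.6 to 34.8 RPKM. Sums of 5 striatal markers ranged from 34.3 to 268, of 4 thalamic markers from 25.3 to 165, and of 3 cerebellar markers from 3.47 to 12.7 RPKM. Only 1 of the 3 cerebellar markers passed the filter. Of the striatal markers, 0 had an unadjusted p under 0.05 in any comparison, although sham replicate 1 had the lowest sum and sham replicate 2 a sum of 259. The spread between mice of the same group in these regional sums was large, and its part in the protocadherin values was not tested.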

How the data were processed

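RNA of 9 mouse brains (3 per group) was sequenced after rRNA depletion, with UMIs. The authors trimmed reads with Trimmomatic 0.36, merged them by UMI, aligned them to GRCm38, counted them on exons with featureCounts (Subread 1.5.1), and deposited RPKM values, 1 column per mouse. The annotation release, strand setting, and handling of reads on several genes are not given in the sources used here. Replicates were separate mice per the study's methods.

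Limma 3.58.1 (R 4.3.3, lmFit and eBayes with trend) was run on log2(RPKM + 0.1), which understates changes of low genes, for 29025 genes with RPKM of at least 0.1 in at least 3 mice, with all groups in 1 fit. P-values were adjusted over these genes by the Benjamini-Hochberg method. The authors used edgeR on counts. Since RPKM was deposited, limma was the main test here. Reads were recovered as RPKM times exon length times depth. Members' overlaps came from the deposited exon intervals. The protocadherins and gene lists were chosen with earlier results of these data known. Named are the C-type genes, the 3 highest and lowest of each cluster, the 5 largest differences without overlap per comparison, and called genes. Of the related lists, called genes and those of smallest p are named. Pcdhb11, Pcdhb16, Pcdha3, Pcdha7, Pcdha8, Pcdhga7, Neurod6, Slc17a7, Ctcf, and Adam10 were named after their values were seen where the rule does not name them. The script was tested on simulated data. Tables came from Python 3.11.15 with pandas 2.3.3, scipy 1.17.1, and numpy 2.4.6. Alternatives were other pseudocounts, filters, scalings, fits, a replicate block, each mouse left out, and voom. Reads above the reference gene were added after the data were seen. For limma, their values below 0 were set to 0. No protein or promoter sequences are shown, and 1 gene of the related lists is not reported here.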

Additional observations from a re-analysis of the deposited data

How the results depend on the processing

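The lowest beta counts were 4 to 10 reads for Pcdhb1, and the other beta genes had at least 29 reads in every mouse. Most alpha and gamma reads lay on shared exons. Of the values that answer a comparison, each set against each alternative, 207 kept their side and size and 24 did not. For ICH minus sham, the number of genes at an unadjusted p under 0.05 (15) became 2 with equal medians and 5 with reads above the lowest gene, where 1 gene met the study's criteria, and ranged from 12 to 40 when a mouse was left out. For feb minus ICH (25) it became 13 without the trend and 2 with reads above the lowest gene, and ranged from 12 to 35 when a mouse was left out. For feb minus sham (0) it became 1 with reads above the lowest gene and ranged from 0 to 1, with 1 without feb replicate 2. With equal medians, the alpha sum's log2 difference was 0.19 for ICH minus sham and -0.13 for feb minus sham. The cause was not tested.

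Pcdhgc5 above the reference kept a p under 0.05 for ICH minus sham in all 15 alternatives run. For feb minus ICH it remained at -0.75 without the trend, no longer past an unadjusted p of 0.05 by limma, and ranged from -0.83 to -0.62 when a mouse was left out. Reads above the lowest gene reversed Pcdha2 for ICH minus sham (-0.077) and for feb minus ICH (0.29), Pcdha11 (0.0081), and Pcdhac1 (0.81) for feb minus ICH. Outside the named genes, Pcdha7 (0.01) and Pcdha8 (0.31) also turned above 0 for feb minus ICH by this measure, as did 14 of 21 gamma genes. Each difference of a named gene past an unadjusted p of 0.05 was set against each alternative. Of these pairs of difference and alternative, 365 kept their side of the threshold, 68 lost it, and 4 reversed.

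The labels share replicate numbers, but same-numbered mice did not deviate together. The correlations were between -0.127 and 0.019, so the numbers do not pair the mice. With the replicate number as a block, 14 genes had an unadjusted p under 0.05 for feb minus ICH, and the block left 0 genes called in every comparison.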
